A study of Mus musculus with 6 samples.

Results

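Vegfa, Adm, Bnip3, Ndrg1, Ankrd37, Egln1, Egln3, Car9, Ddit4 and P4ha1 are textbook target genes of the hypoxia-inducible factors (HIFs) that do not belong to glycolysis. They were taken by symbol from the deposited table, and each symbol had 1 row, so the group held 10 of the 21899 genes listed. All 10 passed the filter on low values (1 FPKM or more on average across samples) and were among the 10853 genes tested. FPKM scales the fragments of a gene by its exon length and by the size of the library, so levels of different genes are compared here per length.

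The samples were subcutaneous tumors of LLC-luc cells, a luciferase-labelled line of Lewis lung carcinoma, grown in male C57BL/6 mice of 18 to 20 g. Photodynamic therapy combines a light-absorbing drug with light, and phycocyanin, a blue pigment-protein of cyanobacteria, served as the drug. The Laser group (n = 2) received light without phycocyanin, the PC-La group (n = 2) phycocyanin and light, and the SePC-La group (n = 2) selenium-enriched phycocyanin and light. Every group was thus irradiated, and no group without light is among the samples. Per the labels, injections into the tumor were given every 5 days and irradiation at 620 nm for 10 min followed 4 h later; the methods of the study give another wavelength and interval. The tumor is a transplant of 1 cell line under the skin, not a tumor arising in lung. Neither the labels nor the methods state that the 2 samples of a group came from separate mice, so the p-values measure only the spread between these samples.

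HIFs are dimers of an oxygen-regulated alpha subunit (HIF-1α, encoded by Hif1a, or HIF-2α, encoded by Epas1) and a stable beta subunit encoded by Arnt. When oxygen is plentiful, prolyl hydroxylases of the EGLN family mark the alpha subunit for destruction by the VHL ubiquitin ligase, and when oxygen falls the subunit persists and the dimer binds short motifs near its target genes. Regulation is therefore mainly at the level of the protein, which RNA sequencing does not measure, and the targets include angiogenic and vasoactive signals, enzymes that handle acid and collagen, regulators of mitochondria and growth, and the EGLN hydroxylases themselves as negative feedback.

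Depth and composition differed between the libraries. The reads recovered from the values ranged from 14447792 to 17649489 a sample. The Laser samples stood apart from each other: their root-mean-square difference over the tested genes was 0.52 on the log2(FPKM + 1) scale. It was 0.20 within PC-La and 0.39 within SePC-La. Laser 1 was nearer to PC-La 1 and PC-La 2 (0.26 and 0.28) than to Laser 2. From SePC-La 1 and SePC-La 2, Laser 1 lay at 0.53 and 0.37, and Laser 2 at 0.46 and 0.50. SePC-La 2 was thus nearer to Laser 1 than to SePC-La 1. Of markers of differentiated lung epithelium, Sftpd, Scgb1a1 and Nkx2-1 were at 0 in every sample and 6 of 8 were under 1 FPKM. Krt8 and Krt18, keratins of simple epithelium, lay between 78.1 and 166 FPKM. The other epithelial markers listed were low, with means over all samples of 0.0783 FPKM for Epcam, 0.617 for Cdh1 and 0.557 for Krt19. In a bulk sample, more cells of a type and more RNA per cell cannot be told apart, and this holds for every result below.

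The binding motif of HIF has the core ACGTG or GCGTG. RefSeq promoters (build GRCm38.p6, 250 bases before the start site) were found for 9 of the 10 genes, all but Ndrg1, and were searched for the core on both strands, where the reverse strand reads CACGT or CACGC. Taking the first start site of each gene, 8 of 9 promoters (88.9%) held at least 1 core, against 57.9% of 8710 promoters of tested genes and 38.6% of all 32851 promoters in the table. At least 2 cores were found in 6 of 9, or 66.7%, against 28.9% of the promoters of tested genes. The core holds a CG step, and the 9 promoters averaged 65.4% G and C against 60.1% for tested genes. The first start site of Vegfa had no core and its second start site had 2. Ankrd37 had 4, of which those beginning at -155 and -152 overlap. All 250 bases searched for the second Vegfa site and for Ankrd37 lie inside the annotated gene itself. Egln1, Ddit4 and Adm had 2 cores each, and Car9 had 1, beginning at base -18. A match is only a run of letters, and binding was not measured. The following 4 promoters are shown because they carry the contrast described below: Adm had the largest difference between SePC-La and the other groups, Egln3 the smallest spread, Bnip3 the most cores, and P4ha1 had 3 cores while its SePC-La samples overlapped those of both other groups. They lie at chr7:110627407-110627656 on the plus strand (Adm), chr7:138909507-138909756 on the minus strand (Bnip3), chr12:54203875-54204124 on the minus strand (Egln3) and chr10:59323046-59323295 on the plus strand (P4ha1). Each is written 5′ to 3′ on the strand of its gene and ends at base -1, and capitals mark the cores on either strand.
Adm: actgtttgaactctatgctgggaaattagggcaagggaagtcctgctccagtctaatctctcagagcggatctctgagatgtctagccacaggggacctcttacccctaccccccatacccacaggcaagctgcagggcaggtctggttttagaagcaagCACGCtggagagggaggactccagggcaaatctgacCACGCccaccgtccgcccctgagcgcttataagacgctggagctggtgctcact
Bnip3: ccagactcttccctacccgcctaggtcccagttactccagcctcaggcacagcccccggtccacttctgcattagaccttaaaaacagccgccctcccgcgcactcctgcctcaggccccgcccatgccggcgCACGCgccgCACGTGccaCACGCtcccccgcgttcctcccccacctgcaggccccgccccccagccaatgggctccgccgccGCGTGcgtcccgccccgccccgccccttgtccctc
Egln3: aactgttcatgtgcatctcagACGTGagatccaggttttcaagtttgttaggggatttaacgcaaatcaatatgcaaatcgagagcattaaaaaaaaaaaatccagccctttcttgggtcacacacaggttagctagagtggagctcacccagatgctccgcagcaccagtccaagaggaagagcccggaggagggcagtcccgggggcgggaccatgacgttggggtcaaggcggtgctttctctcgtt
P4ha1: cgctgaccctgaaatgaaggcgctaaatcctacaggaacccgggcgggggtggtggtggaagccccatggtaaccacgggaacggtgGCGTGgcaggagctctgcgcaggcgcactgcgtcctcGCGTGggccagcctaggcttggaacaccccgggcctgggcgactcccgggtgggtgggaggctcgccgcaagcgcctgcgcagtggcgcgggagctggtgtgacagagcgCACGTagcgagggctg
In Bnip3 the run CACGTG, which reads the same on both strands, was counted on each, so that its 5 cores occupy 4 places, beginning at bases -117, -108, -99 and -35. The cores of Adm began at -90 and -54, that of Egln3 at -229 and those of P4ha1 at -163, -126 and -16.

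Most of the HIF targets were higher in the SePC-La samples than in both other groups. For 8 of the 10 genes, both SePC-La samples lay above all 4 Laser and PC-La samples, a pattern seen in 1251 of the 10853 tested genes, or 11.5%. The exceptions were Car9 and P4ha1. The median log2 fold change of the 10 genes was 0.79 against Laser and 0.80 against PC-La, where the medians of all tested genes were -0.06 and -0.07. Both comparisons use the same SePC-La samples, so they are not independent of each other. Between PC-La and Laser the median was -0.13, beside -0.00 for all genes.

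**Figure D1:**
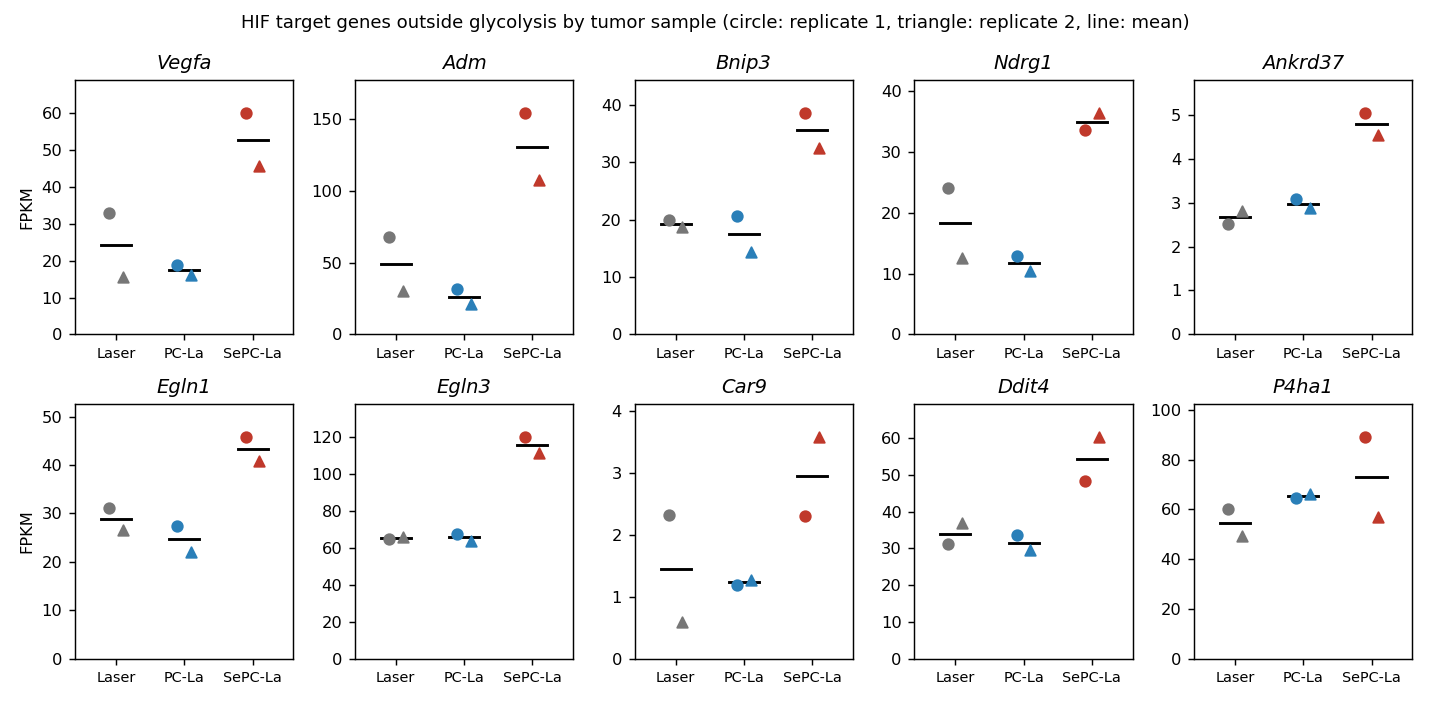
FPKM (vertical axes, each from 0) of the 10 HIF target genes in the 2 Laser, 2 PC-La and 2 SePC-La samples; circles are replicate 1, triangles replicate 2 and black lines the group means. In 8 panels both SePC-La points lie above the other 4 points, and in the panels of Car9 and P4ha1 they do not.

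Against Laser, the criterion of the study (an absolute log2 fold change over 1 with an unadjusted p under 0.05, here from limma) was met by 2 of the 10 genes, Vegfa and Adm, and by 0.544% of all tested genes in that direction. At an unadjusted p under 0.05 with no limit on the fold, 8 of 10 were higher, where 4.9% of all genes were. The groups did not overlap for the same 8, as for 15% of all genes in that direction. Against PC-La, 3 of 10 met the criterion (Vegfa, Adm and Ndrg1), beside 1.18% of all genes, 8 of 10 were higher at an unadjusted p under 0.05, beside 9.91%, and 9 of 10 did not overlap, beside 26%. With median-ratio scaling, which moved the medians of all genes in these comparisons to 0.00 and 0.02, 9 of 10 were higher at an unadjusted p under 0.05 in each, beside 7.46% and 13.9% of all genes. At these settings, no gene of the table reached an adjusted p under 0.05 by limma in any of the 3 comparisons. With median-ratio scaling 6 genes did in SePC-La against PC-La, with quantile normalization 8 and with a minimum mean of 5 FPKM 3, and none of the 10 was among them. The unadjusted counts over all genes were 627, 1318 and 2637 for PC-La against Laser, SePC-La against Laser and SePC-La against PC-La, and the smallest adjusted p of the 10 genes was 0.0985, for Egln3 between SePC-La and PC-La. For a single gene, an exact permutation test of 2 samples against 2 cannot go below p = 0.333.

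The largest differences were in the secreted signals. Vegfa encodes vascular endothelial growth factor A, the main driver of new vessel growth (ENSMUSG00000023951, chr17:46016993-46032369, minus strand, GRCm38). It measured 32.8 FPKM in Laser 1 and 15.5 in Laser 2, 18.9 and 16.2 with PC-La, and 60.1 and 45.6 with SePC-La. The SePC-La mean of 52.8 ± 10.3 (SD, n = 2) was 2.19 times the Laser mean and 3.01 times the PC-La mean, and the groups did not overlap. On the log2 scale the difference was 1.18 from Laser (SE 0.35, 95% interval 0.32 to 2.03, limma unadjusted p = 0.0157, adjusted p = 0.376) and 1.53 from PC-La (SE 0.35, interval 0.67 to 2.38, limma unadjusted p = 0.00503, adjusted p = 0.126). Vegfa is also 1 of the genes that the study listed for its HIF-1 pathway from these same samples. That listing is no evidence of a direction.

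Adm encodes adrenomedullin, a peptide that widens vessels (ENSMUSG00000030790, chr7:110627661-110629820, plus strand). It had 67.6 and 30.0 FPKM with Laser, 31.7 and 21 with PC-La, and 154 and 107 with SePC-La, on 508 to 3603 reads a sample. The lower SePC-La sample was above the higher Laser sample, and the SePC-La mean of 131 ± 33.1 was 2.68 times the Laser mean and 4.97 times the PC-La mean. The log2 difference was 1.49 from Laser (SE 0.43, limma unadjusted p = 0.0149) and 2.27 from PC-La (SE 0.43, limma unadjusted p = 0.00232), the largest of the 10 genes in both comparisons.

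The Laser samples weigh on both of these results. Laser 1 was 2.12 times Laser 2 for Vegfa and 2.26 times for Adm. Without Laser 2 the differences from Laser were 0.66 for Vegfa and 0.92 for Adm, under the fold limit, and without Laser 1 they were 1.69 and 2.07. Without SePC-La 1 they were 0.98 and 1.23 with unadjusted p = 0.0823 and 0.0757 by limma. Against PC-La, Vegfa stayed between 1.33 and 1.72 and Adm between 1.99 and 2.56 with any sample left out.

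The oxygen sensors showed smaller differences with less spread. Egln3 encodes the prolyl hydroxylase PHD3 (ENSMUSG00000035105, chr12:54178981-54203860, minus strand). It read 65.0 and 65.8 FPKM with Laser, 67.7 and 63.8 with PC-La, and 120 and 112 with SePC-La. The 4 Laser and PC-La samples lay between 63.8 and 67.7, and both SePC-La samples stood well above them. The difference was 0.81 on the log2 scale in both comparisons, from Laser with SE 0.12 and limma unadjusted p = 0.000319, which ranked 4 among all tested genes, and from PC-La with limma unadjusted p = 0.000336. With any sample left out it stayed between 0.76 and 0.86.

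Egln1 encodes PHD2, the main HIF hydroxylase in most cells (ENSMUSG00000031987, chr8:124908587-124949324, minus strand). Its values were 31.0 and 26.5 FPKM with Laser, 27.4 and 22.1 with PC-La, and 45.7 and 40.8 with SePC-La. The SePC-La mean was 1.5 times the Laser mean and 1.75 times the PC-La mean. The log2 differences were 0.57 (SE 0.16, limma unadjusted p = 0.00946) and 0.79 (SE 0.16, limma unadjusted p = 0.00198). The first of these had an unadjusted p of 0.0540 by limma without SePC-La 1. The third EGLN enzyme, Egln2, lay between 9.99 and 17.7 FPKM in all samples and had a log2 difference of -0.11 from Laser (limma unadjusted p = 0.625).

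Bnip3, Ddit4 and Ndrg1 act in mitochondrial removal and in restraint of growth. Bnip3 encodes a protein of the outer mitochondrial membrane that marks mitochondria for autophagy (ENSMUSG00000078566, chr7:138890836-138909519, minus strand). It had 19.9 and 18.7 FPKM with Laser, 20.7 and 14.4 with PC-La, and 38.6 and 32.5 with SePC-La. Both SePC-La values exceeded all the others. The difference was 0.85 from Laser (SE 0.19, limma unadjusted p = 0.00359) and 1.00 from PC-La (SE 0.19, limma unadjusted p = 0.00153), the latter just under the fold limit, which it passed with a pseudocount of 0.1, with median-ratio scaling and in voom. The antisense gene Gm45507 covers 22.3% of the exons of Bnip3, and without strand information reads of the pair cannot be told apart. Its paralog Bnip3l ranged from 46.6 to 59.4 FPKM, with a difference of 0.14 from Laser (limma unadjusted p = 0.298) and 0.25 from PC-La (limma unadjusted p = 0.0836).

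Ddit4 encodes REDD1, an inhibitor of mTORC1 signaling under stress (ENSMUSG00000020108, chr10:59949669-59951834, minus strand). Laser gave 31.1 and 36.9 FPKM, PC-La 33.7 and 29.4, and SePC-La 48.4 and 60.2. Here SePC-La 2 was the higher of its pair, unlike for Vegfa and Adm. The differences were 0.66 from Laser (SE 0.16, limma unadjusted p = 0.00601) and 0.76 from PC-La (SE 0.16, limma unadjusted p = 0.00295), and each kept an unadjusted p under 0.05 with any sample left out.

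Ndrg1 encodes a stress-induced protein whose loss or gain has been tied to growth and spread of tumors (ENSMUSG00000005125, chr15:66929318-66969640, minus strand). It measured 24.1 and 12.7 FPKM with Laser, 12.9 and 10.5 with PC-La, and 33.6 and 36.5 with SePC-La. The SePC-La pair differed by a ratio of 1.09 only, whereas Laser 1 was 1.90 times Laser 2. The difference from PC-La was 1.51 (SE 0.29, limma unadjusted p = 0.00179) and met the criterion, and it was at least 1.38 with any sample left out. The difference from Laser was 0.96 (SE 0.29, limma unadjusted p = 0.0150). It was 0.52 without Laser 2 and 1.40 without Laser 1, and without SePC-La 2 its unadjusted p was 0.0689 by limma.

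Ankrd37 encodes an ankyrin-repeat protein of little-known function (ENSMUSG00000050914, chr8:45996902-46005707, minus strand). It was low, with 2.52 and 2.80 FPKM with Laser, 3.08 and 2.87 with PC-La, and 5.04 and 4.54 with SePC-La, on 61 to 122 reads a sample. The SePC-La values were again above all others. The differences were 0.66 from Laser (SE 0.14, limma unadjusted p = 0.00274) and 0.54 from PC-La (SE 0.14, limma unadjusted p = 0.00723). The latter had an unadjusted p of 0.0636 without PC-La 2 and of 0.0537 in voom. Lrp2bp on the other strand shares 22.7% of its exon bases but was itself at most 0.104 FPKM. Ufsp2, at 10.4 to 13.1 FPKM, shares 3.70%.

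Car9 and P4ha1 were the genes for which a Laser sample lay level with or above a SePC-La sample. Car9 encodes carbonic anhydrase IX, which acidifies the space outside hypoxic tumor cells (ENSMUSG00000028463, chr4:43506966-43513729, plus strand). It had 2.32 and 0.590 FPKM with Laser, 1.19 and 1.28 with PC-La, and 2.31 and 3.58 with SePC-La, on 24 to 144 reads a sample. Laser 1 was level with SePC-La 1, and Laser 1 was 3.93 times Laser 2. The difference was 0.76 from Laser (95% interval -0.11 to 1.64, limma unadjusted p = 0.0778) and 0.80 from PC-La (interval -0.07 to 1.68, limma unadjusted p = 0.0666). Without Laser 1 the first was 1.29, and without Laser 2 it was 0.23. In a fit of the SePC-La and PC-La samples alone, the second had an unadjusted p of 0.00740 by limma.

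P4ha1 encodes the catalytic subunit of collagen prolyl 4-hydroxylase (ENSMUSG00000019916, chr10:59323296-59373304, plus strand). It had 60.2 and 49.2 FPKM with Laser, 64.6 and 66.0 with PC-La, and 88.9 and 57.1 with SePC-La. SePC-La 1 was the highest sample and SePC-La 2 the second lowest. The difference was 0.38 from Laser (interval -0.15 to 0.92, limma unadjusted p = 0.134) and 0.12 from PC-La (interval -0.41 to 0.66, limma unadjusted p = 0.594), and the latter was -0.19 without SePC-La 1. Fibroblast markers, whose cells make collagen, summed to 534 and 74.3 FPKM with Laser, 827 and 704 with PC-La, and 49.4 and 239 with SePC-La. Most of each sum came from Dcn and Lum. Both PC-La samples were above both SePC-La samples for Dcn, Lum, Pdgfra and Fap, but not for Col1a1, Col1a2 and Pdgfrb. Col1a1 and Col1a2 were highest in SePC-La 2, at 23.2 and 10.1 FPKM. The sums followed the order of P4ha1 within Laser and between Laser and PC-La but not within PC-La or SePC-La. The P4ha1 mean was highest in SePC-La, at 73.0 FPKM beside 54.7 in Laser and 65.3 in PC-La. Both SePC-La fibroblast sums lay below both PC-La sums and overlapped those of Laser. The part of these markers in the result was not tested. P4ha1 lies 576364 bases from Ddit4 on chromosome 10, and the SePC-La samples of the latter lay above all others.

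**Figure D2:**
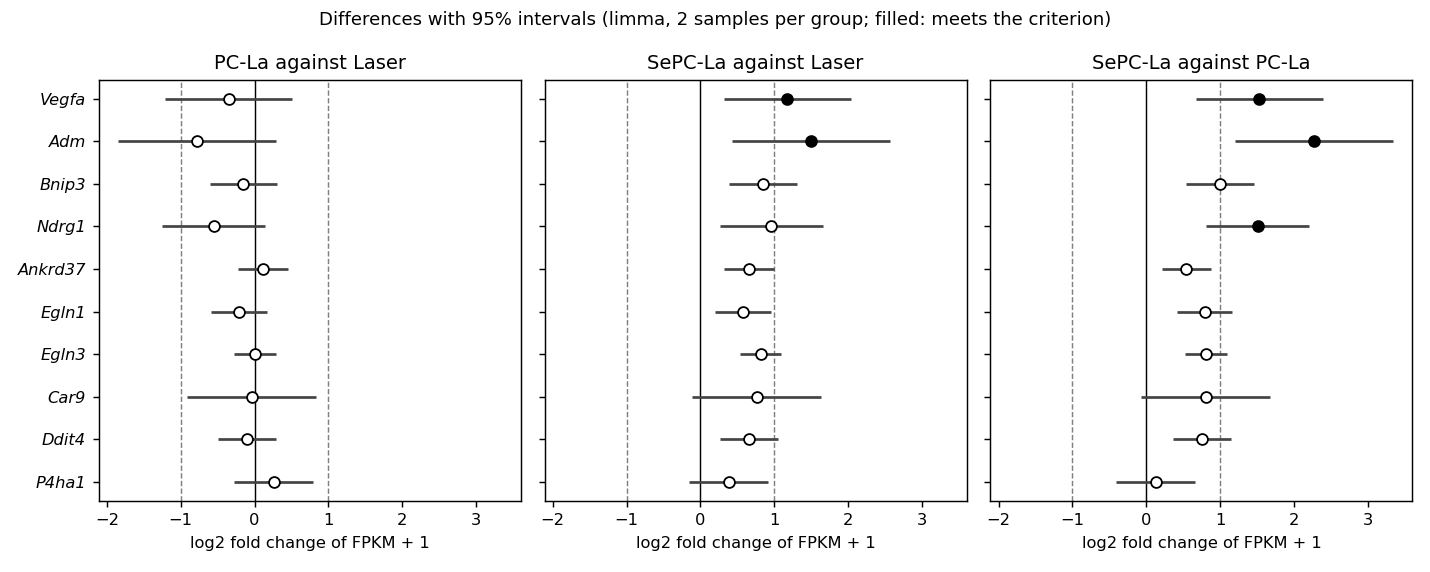
Log2 fold changes of FPKM + 1 (horizontal axes) of the 10 genes in the 3 comparisons, with 95% intervals from limma; filled points met the criterion and dashed lines stand at -1 and 1. All points of both SePC-La comparisons are to the right of 0, and in PC-La against Laser every interval includes 0.

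Between PC-La and Laser no difference of the 10 genes passed the test. None met the criterion (0 of 10), beside 1.29% of all tested genes in either direction, and 0 had an unadjusted p under 0.05, beside 5.78%. The fold changes ran from -0.78 for Adm (95% interval -1.85 to 0.29, limma unadjusted p = 0.121) to 0.26 for P4ha1 (interval -0.28 to 0.79), with 7 genes lower and 3 higher. Only Ankrd37 and P4ha1 did not overlap between the groups, both higher in PC-La, where 42% of all genes did not overlap in either direction. The intervals of Adm, Vegfa and Ndrg1 were the widest beside that of Car9, and each included a log2 fold change of -1. Without Laser 2, 3 genes were lower in PC-La, namely Adm by -1.36 (limma unadjusted p = 0.00560), Ndrg1 by -0.99 (limma unadjusted p = 0.00129) and Vegfa by -0.87 (limma unadjusted p = 0.00636), and without Laser 1 the differences of the same genes were -0.21, -0.11 and 0.17. The spread was smallest for Egln3, whose interval of -0.27 to 0.29 bounds any difference between PC-La and Laser most closely.

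**Figure D3:**
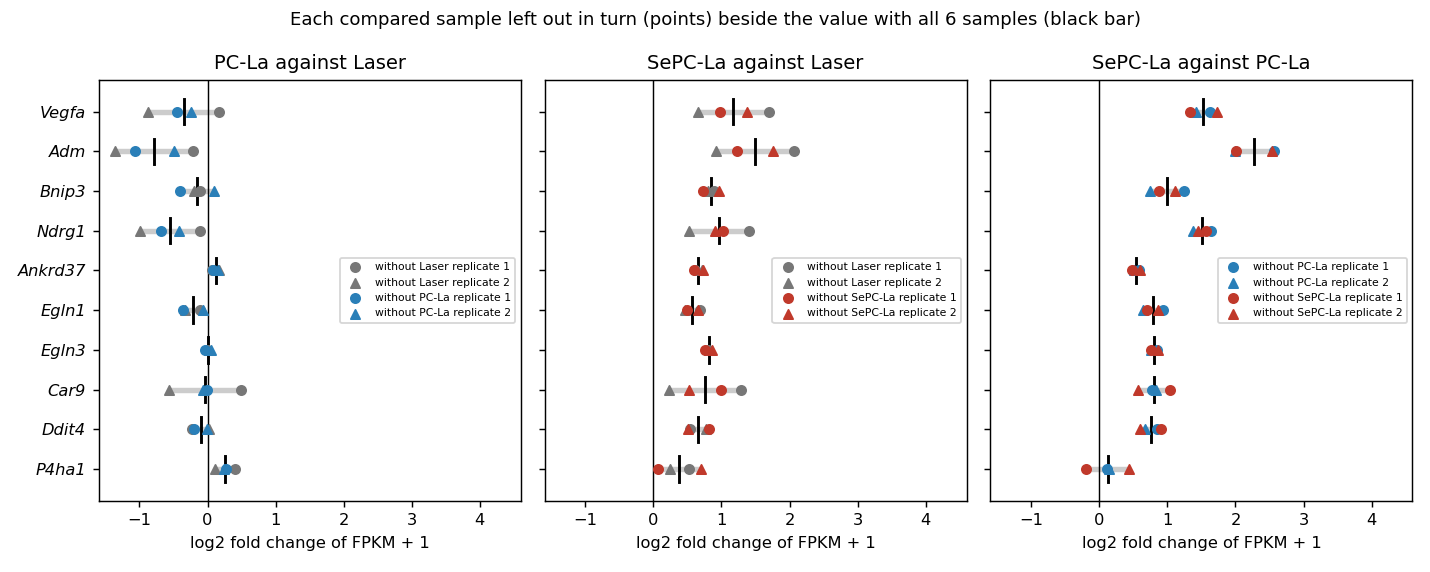
Log2 fold changes of FPKM + 1 (horizontal axes) with each sample of the compared groups left out in turn (points, colored by the group of the sample left out) beside the value with all samples (black bars). The points of Vegfa, Adm, Ndrg1 and Car9 spread most in the comparisons with Laser, and in SePC-La against PC-La only P4ha1 has a point left of 0, at -0.19.

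The genes also differed in how their levels followed the samples. Averaged over the 10 genes as log2(FPKM + 1) centred on each gene, the Laser samples were at 0.00 and -0.43, the PC-La samples at -0.29 and -0.50, and the SePC-La samples at 0.68 and 0.55. Replicate 1 of Laser was above replicate 2 for 7 genes. Of the 10, 3 (Vegfa, Adm and Car9) differed by more than 1 on the log2(FPKM + 1) scale between the Laser samples, whereas 5.21% of all genes differed by so much. Bnip3, Egln1 and Egln3 were nearest to the mean profile, with root-mean-square differences of 0.13, 0.13 and 0.16, and Adm (0.58) and P4ha1 (0.40) were farthest from it. Among 7482 other genes that averaged 5 FPKM or more, the profiles nearest to the mean of the 10 over the 6 samples were those of Plin2 (0.087), which coats lipid droplets, Nfil3 (0.095), a transcription factor, Dusp5 (0.114), a phosphatase of ERK, Higd1a (0.121), a mitochondrial protein, and Tagln2 (0.132), an actin-binding protein. Plin2 and Higd1a are themselves on the list of other HIF targets below. This likeness is a description over 6 samples that share their groups.

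The transcripts of the HIF subunits and of the machinery that senses oxygen differed in both directions. Of 14 tested genes of this list, 1 was higher (Elob) and 1 lower (Ep300) in SePC-La than in Laser at an unadjusted p under 0.05, 2 were higher (Elob and Siah2) and 3 lower (Arnt, Hif1an and Ep300) than in PC-La, and 0 met the criterion in any comparison. In either direction, 12.1% of all genes passed this p against Laser and 24.3% against PC-La. Hif1a was 43.0 and 40.1 FPKM with Laser, 41.9 and 45.3 with PC-La, and 45.2 and 52.5 with SePC-La. Its difference from Laser was 0.23 (limma unadjusted p = 0.131). Epas1 lay between 2.07 and 3.43 FPKM. Arnt, the shared beta subunit, was 10.5 and 10.4 FPKM in SePC-La and 14.3 and 14.6 in PC-La, a difference of -0.43 (limma unadjusted p = 0.0172). Hif1an encodes FIH, which blocks coactivator binding by HIF-1α, and Ep300 encodes such a coactivator; their differences from PC-La were -0.37 and -0.40. Vhl was between 8.49 and 11.1 FPKM, with differences of 0.11 from Laser and -0.06 from PC-La.

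Other HIF targets outside glycolysis were more mixed. Of 38 tested genes, 11 were higher and 1 lower in SePC-La than in Laser at an unadjusted p under 0.05, at a median fold change of 0.28 (log2), and 18 were higher and 1 lower than in PC-La, with a median of 0.56. Among those that met the criterion against Laser were Angptl4 (1.92), which inhibits lipoprotein lipase, Hilpda (1.63), which inhibits triglyceride breakdown, and Igfbp3 (1.30), which binds insulin-like growth factors. Among those that met it against PC-La were Hmox1 (2.38), the heme oxygenase, Hilpda (2.29), Angptl4 (1.99), Mif (1.34), a cytokine, and Ero1a (1.27), an oxidase of protein folding. Hilpda had 57.3 and 22.2 FPKM with Laser, 24.7 and 19.9 with PC-La, and 130 and 97.1 with SePC-La. Both SePC-La values were above all others. For Igfbp3 they were not: it had 22.4 and 24.5 FPKM with Laser, 39.9 and 49.2 with PC-La, and 88.8 and 39.4 with SePC-La. Its difference of SePC-La from PC-La was 0.41 (limma unadjusted p = 0.308). Between PC-La and Laser, 1 gene of the list was higher and 5 were lower at an unadjusted p under 0.05, and Hmox1 (-1.43) and Loxl2 (-1.45), a lysyl oxidase, met the criterion. This count of 2 was 1 to 3 under other settings, 6 without Laser 1, 4 without Laser 2 and 0 without PC-La 2, and Loxl2 itself was 2.90 and 11.3 FPKM in the Laser samples. Hmox1 was 265 and 117 FPKM with Laser, 83.4 and 50.4 with PC-La, and 369 and 315 with SePC-La. It is also a target of the oxidative stress factor NRF2. Of the genes of collagen handling on this list, Plod1 was lower than in PC-La by -0.46 (limma unadjusted p = 0.0147), while Plod2 had a difference of -0.71 (limma unadjusted p = 0.105) and P4ha2 of 0.48 (limma unadjusted p = 0.362).

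The HIF targets of glycolysis, the list closest in kind to the 10 genes, were also mostly higher in SePC-La. Of 19 tested, 14 were higher and 0 lower than in Laser at an unadjusted p under 0.05, with a median of 0.53, and 17 were higher and 1 lower (Pfkfb4) than in PC-La, with a median of 0.64. Only Slc2a1 (1.07), the glucose transporter GLUT1, met the criterion against Laser, and Slc2a1 (1.30), Slc16a3 (1.16), a lactate exporter, and Pgk1 (1.02), phosphoglycerate kinase, met it against PC-La. Slc2a1, like Vegfa, was picked by the study from these same samples, and that choice is no evidence of a direction. Between PC-La and Laser the median was -0.13, as for the 10 genes, and 0 met the criterion. Whether the groups of targets differ from each other was not tested.

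**Figure D4:**
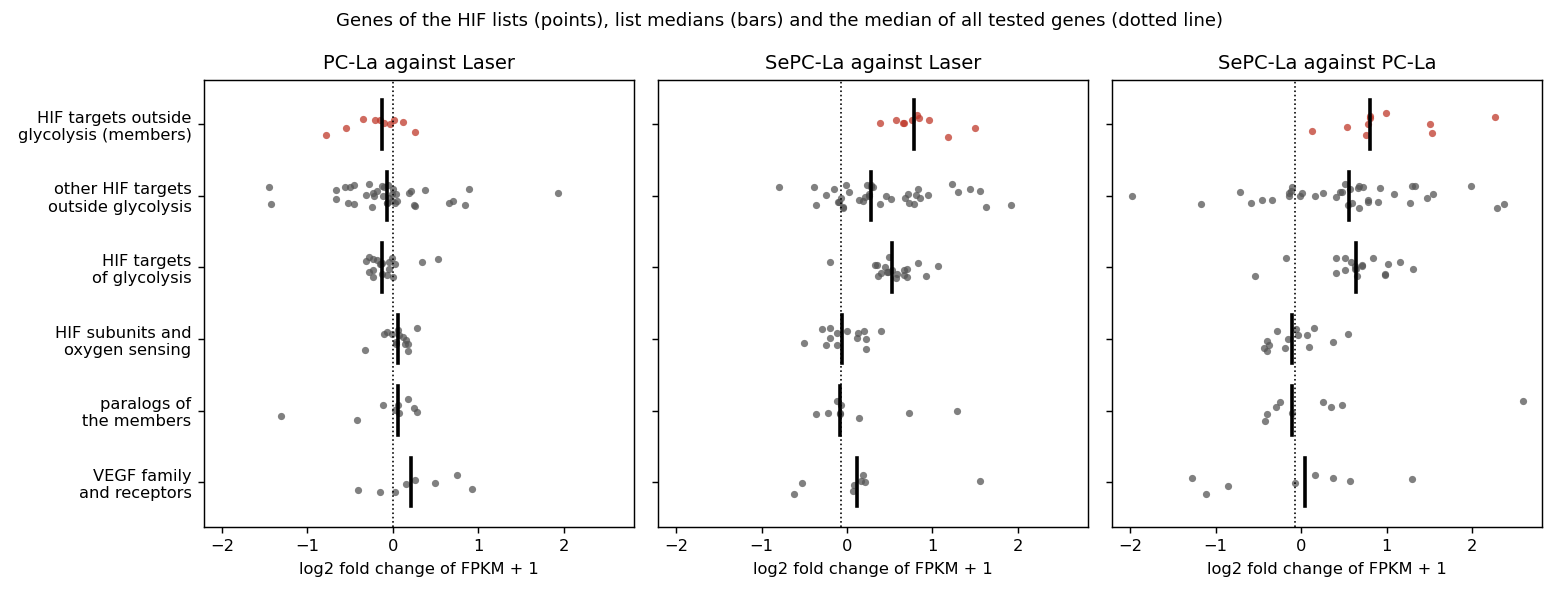
Log2 fold changes of FPKM + 1 (horizontal axes) of each tested gene (points) in the lists of HIF genes, with list medians (bars) and the median of all tested genes (dotted line), in the 3 comparisons. The medians of the 10 genes, of the other targets and of the glycolysis targets lie at 0.79, 0.28 and 0.53 in SePC-La against Laser, and that of the subunits and oxygen sensors at -0.06.

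Adm2 differed most among the paralogs of the 10 genes. Of 9 tested paralogs, only Adm2, which encodes the adrenomedullin relative intermedin, had an unadjusted p under 0.05 in any comparison. It was 2.21 and 3.62 FPKM with Laser, 0.542 and 0.566 with PC-La, and 9.65 and 7.28 with SePC-La. No group overlapped another. It met the criterion in each comparison. The difference was -1.31 for PC-La against Laser (limma unadjusted p = 0.000902) and 1.29 for SePC-La against Laser (limma unadjusted p = 0.000989). For SePC-La against PC-La it was 2.6 (limma unadjusted p = 1.61e-05). The limma adjusted p of Adm2 was 0.419, 0.376 and 0.0649 in the same order. Bnip3l, Ndrg2, Ndrg3, Ndrg4, Egln2, P4ha2, P4ha3 and P4hb had differences between -0.42 and 0.72 in the 3 comparisons. P4hb, the partner subunit of P4ha1, lay between 288 and 375 FPKM.

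The ligands and receptors around Vegfa and Adm did not follow them as a group. Of 8 tested genes of the VEGF family and its receptors, 0 had an unadjusted p under 0.05 between SePC-La and Laser. Against PC-La, Vegfb (0.37) and the coreceptor Nrp2 (0.57) were higher, and the lymphatic ligands Vegfc (-0.86) and Vegfd (-1.27) and the coreceptor Nrp1 (-1.11) were lower, the criterion being met by Vegfd and Nrp1. Vegfc was higher in PC-La than in Laser by 0.92 (limma unadjusted p = 0.00584). Pgf, placental growth factor, was 4.73 and 0.546 FPKM in Laser and 10.4 and 5.76 in SePC-La, a difference of 1.56 (limma unadjusted p = 0.0547). The endothelial receptors Flt1 and Kdr were between 0.847 and 2.85 FPKM and had differences of at most 0.19. Of the adrenomedullin receptor, Calcrl was between 1.91 and 7.24 FPKM and had differences of -0.42 from Laser (limma unadjusted p = 0.410) and -1.01 from PC-La (limma unadjusted p = 0.0812). Ramp2 differed by -0.02 and -0.37, and Ramp3, at 0.575 to 2.24 FPKM, by 0.68 from Laser (limma unadjusted p = 0.0460) and 0.55 from PC-La.

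Marker genes of other cell types also differed between the samples, and their part in the results was not tested. Neutrophil markers (9 listed, 6 tested) summed to 161 and 34.6 FPKM with Laser, 157 and 91.5 with PC-La, and 337 and 463 with SePC-La, and S100a8, S100a9 and Retnlg met the criterion against Laser. Erythroid markers, the globins and Alas2, summed to 127 and 13.6 FPKM, 263 and 361, and 613 and 932 in the same order. Both sums were highest in SePC-La, as were 8 of the 10 HIF targets. Within SePC-La both sums were higher in replicate 2, while 7 of the 10 genes were higher in replicate 1. Within Laser both sums and 7 of the 10 genes were higher in replicate 1. Within PC-La the neutrophil sum and 8 of the 10 genes were higher in replicate 1, and the erythroid sum in replicate 2. Macrophage markers, abundant in every sample, summed to 1297 and 2052, 1491 and 1621, and 1006 and 1447 FPKM. Skeletal muscle markers were highest in Laser, at 21.7 and 147 FPKM, against at most 6.13 elsewhere. Endothelial markers summed to 25.1 and 21.2, 25.6 and 33.6, and 36.7 and 28.6 FPKM, and 2 of 6 tested were higher in SePC-La than in Laser at an unadjusted p under 0.05. The sums of T and NK cell markers, at 16.6 to 47.2 FPKM, and of adipocyte markers, at 1.57 to 20.1, overlapped between SePC-La and each other group, and of keratinocyte markers Krt5, Krt14, Krt1 and Lor were at 0 in all samples. Sums of simple-epithelium markers were between 188 and 277 FPKM in all 6 samples and came almost wholly from Krt8 and Krt18.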

How the data were processed

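RNA of 6 tumor samples, 2 each of Laser, PC-La and SePC-La, was sequenced after Trizol extraction and NEBNext Ultra II library preparation. The submitters' processing notes name HISAT2 2.0.5, HTSeq 0.9.1, DESeq 1.30.0 and the build mm9; the annotation and strandedness are not given in the sources used here. The authors deposited 1 table of normalized values, which matched FPKM: with exon lengths of GENCODE M21 (GRCm38), whole reads (within 0.05) were recovered in all samples for 97.9% of expressed genes. Reads totalled 14447792 to 17649489 a sample. Coordinates are those of GENCODE M21, and overlapping genes were read from it.

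The 10 genes, 6 lists of related genes and 11 lists of cell markers were chosen with earlier results of these data known. Differences were computed with limma 3.58.1 (R 4.3.3) on log2(FPKM + 1) for genes averaging 1 FPKM or more, in 1 fit of 3 group means with trend and robust moderation (6.4 degrees of freedom, 3.4 from the prior), with Benjamini-Hochberg adjustment over 10853 genes. A fold change on this scale understates that of low genes. Named genes were the 10, the genes of each list that met the criterion or else had the smallest p, lists of 5 or fewer tested genes whole, and the 5 nearest profiles; other genes were named after their values were seen. Where a symbol had several rows, the row with the highest mean was used. Some single genes of the lists are not reported here, but they enter the fits and counts. The fit was tested on simulated data. Alternatives were another pseudocount, filter, scaling, moderation or set of samples, the replicate block, limma voom on recovered reads, and each sample left out. Python 3.11.15, NumPy 2.4.6, pandas 2.3.3, SciPy 1.17.1 and matplotlib 3.10.9 were used.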

Additional observations from a re-analysis of the deposited data

How the results depend on the processing

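There were 10 other settings and 6 fits that each lacked 1 sample. The HIF targets tested were all higher in SePC-La than in Laser in 16 of 16 fits, and than in PC-La in 15 of 16. Many of these fits could not change a fold change, so they are not 16 separate checks. It is fixed without a filter, trend or robust moderation, with only the compared samples, and with the replicate block. The same holds when the sample left out belongs to the group not compared. The median log2 fold change of the 10 genes stayed between 0.69 and 0.86 against Laser and between 0.76 and 0.93 against PC-La. Under the 10 other settings, 7 to 9 of the 10 were higher at an unadjusted p under 0.05 by limma in each SePC-La comparison. Of all genes, 2.87% to 7.46% were against Laser and 6.85% to 13.9% against PC-La. A minimum mean of 5 FPKM leaves 8 of the 10. Counts that met the criterion depended on the samples: with 1 sample left out, 0 to 4 did for SePC-La against Laser (0 without Laser 2, 1 without SePC-La 1, 4 without Laser 1), 3 to 4 against PC-La, and 0 to 1 for PC-La against Laser. With all samples and no limit on the fold, 8 did in each SePC-La comparison, beside 4.9% and 9.91% of all genes in that direction. Some differences of PC-La from Laser changed sign. That of Egln3 was -0.018 with median-ratio scaling and -0.0013 with quantile normalization, and that of Car9 was 0.046 with a pseudocount of 0.1 and 0.12 in voom. With 1 sample left out, the same difference ran from -0.87 (without Laser 2) to 0.17 (without Laser 1) for Vegfa, from -0.57 to 0.49 likewise for Car9, from -0.40 (without PC-La 1) to 0.094 (without PC-La 2) for Bnip3, from -0.035 to 0.049 likewise for Egln3, and from -0.22 (without Laser 1) to 0.019 (without Laser 2) for Ddit4. In SePC-La against PC-La, P4ha1 ran from -0.19 (without SePC-La 1) to 0.44 (without SePC-La 2). The cause was not tested.

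Adjusted p depended on the samples in the fit and on the scaling and filter. In SePC-La against PC-La, 0 genes had an adjusted p under 0.05 by limma, 6 with median-ratio scaling, 8 with quantile normalization and 3 with a minimum mean of 5 FPKM, and 2637 had an unadjusted p under 0.05. With only the SePC-La and PC-La samples in the fit, 637 genes and 7 of the 10 had an adjusted p under 0.05 by limma, the smallest of the 10 being 0.0189, and without Laser 1 or Laser 2 it was 639 or 643 genes and 7 of the 10. Without Laser 1, 97 genes and 2 of the 10 (Ndrg1 and Vegfa) did in SePC-La against Laser. Over all genes, the criterion was met by 140, 74 and 323 genes in PC-La against Laser, SePC-La against Laser and SePC-La against PC-La, and in voom by 220, 133 and 474. With a pseudocount of 0.1 the last 2 counts were 129 and 488, and with a minimum mean of 5 FPKM the 3 were 68, 46 and 186. Of the other HIF targets outside glycolysis, 2, 4 and 6 met it, and with 1 sample left out 0 to 6, 1 (without SePC-La 1) to 14 (without Laser 1) and 5 to 11 (11 without either Laser sample). For all genes, with 1 sample left out, the counts ran from 71 to 664, from 60 to 253 and from 169 to 584. The replicate numbers did not pair the samples (correlations of replicate differences of 0.09, -0.43 and -0.18), and with the replicate block 0, 2 and 3 of the 10 met the criterion, as without it, while Adm had an unadjusted p of 0.00939 by limma in PC-La against Laser. Car9 and Ankrd37 rest on few reads, at least 24 and 61 a sample.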
